A study of Homo sapiens with 40 samples.

Results

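The 32 mRNAs described here encode subunits of the proteasome, the protease that degrades ubiquitin-tagged proteins in the cytosol and nucleus. They are the genes of the count table whose symbols run from PSMA to PSMD followed by a number and which had 10 or more counts in at least 10 of the 20 input libraries. Of 57992 genes in the table, 39 carried such a symbol and 32 passed. The 7 that did not pass were PSMA8, PSMB3, PSMB8, PSMB9, PSMB10, PSMB11 and PSMD5. The class had been described in advance as enriched over input in every arm, and the data go against that: 0 of the 32 members lay above input in all 9 arms, and 1 member, PSMD3, lay below input in all 9.

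The study labelled RNA by location in HEK293T cells, a transformed human embryonic kidney line, with the peroxidase APEX2, which in the presence of biotin-phenol and hydrogen peroxide attaches biotin to molecules close to it. Constructs placed APEX2 in the mitochondrial matrix (MITO), at the endoplasmic reticulum membrane (ERM), in the cytosol (NES) or at the nuclear lamina (LMNB1), and cells could first be fed 6-thioguanosine (s6G) or 4-thiouridine (s4U), ribonucleosides that enter newly made RNA. Biotinylated RNA was captured on streptavidin beads, and libraries were made from polyadenylated RNA after capture (enriched) and before it (input). The 40 libraries form 9 arms, each with enriched and input libraries. MITO cells gave 4 arms: s6G, s4U, APEX labelling with no thionucleoside (APEX only), and neither thionucleoside nor biotin-phenol (unlabelled). LMNB1 cells gave the same arms except s4U, and ERM and NES cells gave an s6G arm each. The ERM groups hold 4 biological replicates each and every other group holds 2. Fed cells received 100 µM s6G or s4U for 5 h by their treatment label. Biotin-phenol (0.5 mM) was added to labelled cells 30 min before peroxide. All cells, those of the unlabelled arms included, received a pulse of 1 mM peroxide lasting 1 min. No ERM or NES arm without probe or thionucleoside was analysed here. The treatment labels of the 4 ERM enriched libraries and of all 4 LMNB1 s6G libraries name s4U, against s6G in their titles. In ERM this conflict touches the enriched side of the contrast alone. Enriched libraries were amplified for 15 cycles and inputs for 11.

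The proteasome core is a stack of rings. Alpha subunits (PSMA) form the outer gates, and beta subunits (PSMB) form the inner rings, where PSMB5, PSMB6 and PSMB7 cut peptide bonds. The regulatory particle caps the core: ATPases (PSMC) unfold substrates, and PSMD subunits bind ubiquitin, remove it and hold the lid together. The mRNAs are translated in the cytosol, and in human cells their transcription is raised together by the factor NFE2L1 when proteasome activity drops. Of the 32 members, 7 were alpha ring, 6 beta ring, 6 ATPase ring and 13 PSMD genes.

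Library depth ranged from 123341 to 14496768 counts as deposited. In ERM enriched replicates 3 and 4 the count of every member was an even number, as were the totals of 13885706 and 14496768. Why these counts were even was not tested. They may overstate the depth of these libraries and the precision of the ERM enriched values. The shallowest libraries were the enriched MITO unlabelled pair, with 123341 and 842177 counts. Transcripts of the mitochondrial genome took 26.3% to 58.2% of counts in the 6 labelled enriched MITO libraries. As a check of the constructs, LMNB1 had 2340 to 6728 CPM (read counts scaled to a common library total) in the 12 LMNB1 libraries against 77.8 to 340 in the other 28, and SEC61B had 1091 to 3452 CPM in the 8 ERM libraries against 57.1 to 235 in the other 32. Of the genes known from this line, CDH2, KRT8, NEFL, NEFM and PAX2 were detected in each of the 40 libraries, PAX2 at a median of only 2.22 CPM. KRT18 was at 0 in 1 library. The summed level of 11 markers of other cell types was 8.14 to 130 CPM. COL1A1 had the highest median of them, 28.8 CPM, above KRT8 at 14.5 and KRT18 at 23.7. GFAP reached 56.8 CPM, and PTPRC, which marks blood cells, was at 0 in 33 libraries.

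In the inputs the members together took 0.452% to 0.660% of the counts outside the mitochondrial genome. The members with the most counts in an input, by the median over the 20 inputs, were PSMB4 with 1812.5, PSMD2 with 1808.5 and PSMA7 with 1683.5. These are raw counts, which depend on library depth and transcript length and do not rank the members by level. At the other end stood PSMA2 with 24.5, PSMA6 with 40, PSMD9 with 41.5, PSMC4 with 45 and PSMA1 with 95, and fold changes of these 5 carry wide errors. All 5 reached 10 counts in each of the 20 inputs. The sources do not say how reads matching several copies of a gene were counted, so low counts of a member need not be its abundance. The induced catalytic subunits of the immunoproteasome had next to no counts: PSMB8 had 0 counts in every library, PSMB9 at most 1 and PSMB10 at most 26, with 10 or more in 3 of 20 inputs. PSMB3 reached 2 counts at most and the assembly chaperone PSMD5 11.

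**Figure D1:**
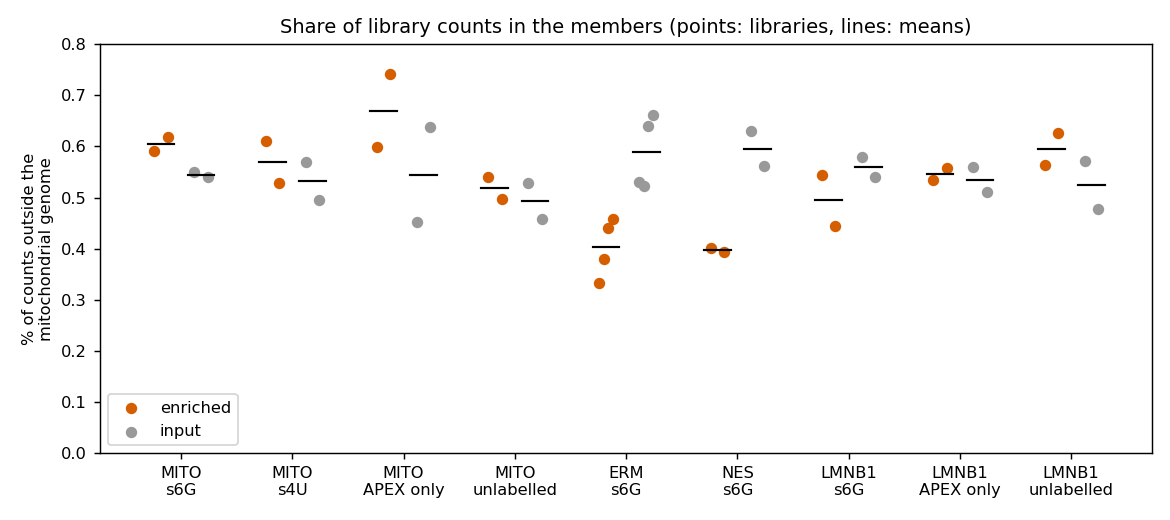
Share of each library's counts that fell on the 32 members, in percent of counts outside the mitochondrial genome, for 9 arms with enriched libraries in orange left of inputs in grey; points are libraries and lines are means. The 4 enriched ERM libraries lie between 0.333% and 0.459%, below the 4 ERM inputs, and both enriched NES libraries lie below both NES inputs.

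Proteasome mRNAs were depleted after capture at the endoplasmic reticulum membrane and in the cytosol. Their share of counts outside the mitochondrial genome was 0.403% ± 0.057 in ERM enriched libraries and 0.588% ± 0.071 in ERM inputs (SD, n = 4 each), and 0.398% ± 0.005 in NES enriched libraries and 0.596% ± 0.047 in NES inputs (SD, n = 2 each). With edgeR's quasi-likelihood test and a Benjamini-Hochberg adjusted p under 0.05 as the call, 22 of 32 members fell and 2 rose in ERM, where 28.9% of all genes tested fell and 34.3% rose. In NES 20 fell and 1 rose, where 26.4% of all genes fell and 28.7% rose. The median log2 fold change of the members was -0.75 in ERM against 0.11 over all genes tested, and -0.64 in NES against 0.01 over all genes tested. The same 20 members fell in both, and PSMA5 and PSMD11 were called in ERM alone. Each enriched library lay below each input for 21 members in ERM and 24 in NES, against 26% and 39.5% of all genes. Without NES enriched replicate 2 the NES calls went to 11 lower and 1 higher, and without NES input replicate 1 to 12 lower and 1 higher.

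The beta ring fell as a whole. All 6 measured members were called lower in both constructs, with a median of -1.29 in ERM and -0.97 in NES. PSMB4, a structural beta subunit, was the lowest member of ERM. Its TMM-scaled CPM, a level comparable between libraries of the ERM and NES constructs, was 127, 167, 221 and 235 in ERM enriched libraries and 397, 385, 576 and 620 in ERM inputs. Each enriched library lay below each input, a change of -1.40 ± 0.18 (log2, SE; adjusted p = 3.29e-06). In NES the level of PSMB4 was 197 and 194 in enriched libraries against 424 and 394 in inputs, a change of -1.07 ± 0.26 (adjusted p = 0.00211).

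The 3 catalytic subunits fell in both constructs. PSMB5, the chymotrypsin-like site and the target of bortezomib, had 101, 127, 151 and 159 scaled CPM in ERM enriched libraries and 197, 189, 267 and 299 in ERM inputs. It changed by -0.82 ± 0.15 in ERM (adjusted p = 0.000143) and by -0.53 ± 0.22 in NES (adjusted p = 0.0495), a value just inside the threshold. PSMB6, the caspase-like site, had 45.9, 54.6, 78.9 and 75.7 scaled CPM in ERM enriched libraries and 142, 139, 186 and 203 in ERM inputs, again without overlap. It changed by -1.38 ± 0.17 in ERM and -0.99 ± 0.24 in NES. PSMB7, the trypsin-like site, changed by -1.20 ± 0.15 in ERM and -0.96 ± 0.21 in NES. PSMB2, a structural beta subunit, was among the 3 lowest members of ERM at -1.39 ± 0.13 and stood at -1.13 ± 0.19 in NES.

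In the alpha ring, 5 of 7 members were called lower in ERM and 4 of 7 in NES, with medians of -0.91 and -0.74. PSMA1 was among the 3 lowest members of NES at -1.13 ± 0.25, on few counts. PSMA2 and PSMA6, also on few counts, passed in neither construct. In the ATPase ring 3 of 6 members, PSMC3, PSMC5 and PSMC6, were called lower in both constructs, and the medians were -0.56 in ERM and -0.48 in NES. PSMC2 had a change of 0.00 ± 0.15 in ERM and -0.06 ± 0.22 in NES. PSMC1 had -0.41 ± 0.18 in ERM and -0.36 ± 0.26 in NES and did not pass in either.

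The PSMD genes ran from the strongest falls to the clearest rise. PSMD1, a scaffold of the regulatory particle base, had 67.9, 77.5, 105 and 103 scaled CPM in ERM enriched libraries and 190, 204, 266 and 270 in ERM inputs, a change of -1.39 ± 0.16 (adjusted p = 3.99e-07), with no overlap between the groups. PSMD2, the other large base subunit and a docking site for ubiquitin-like domains, changed by -1.18 ± 0.15 in ERM and -1.15 ± 0.22 in NES, where it was the lowest member. The ubiquitin receptor PSMD4 changed by -0.85 ± 0.15 in ERM and -0.68 ± 0.21 in NES.

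PSMD12, a lid subunit, went the other way. It had 248, 306, 279 and 256 scaled CPM in ERM enriched libraries and 124, 126, 150 and 141 in ERM inputs, and 358 and 335 in NES enriched libraries against 178 and 134 in NES inputs. Each enriched library was above each input of its construct, and PSMD12 rose by 1.01 ± 0.11 in ERM (adjusted p = 3.9e-07) and by 1.15 ± 0.16 in NES (adjusted p = 1.04e-05), about 2.01 and 2.22 times input. PSMD7, also of the lid, rose in ERM by 0.37 ± 0.14 (adjusted p = 0.0276), where its enriched libraries at 65.4 to 107 overlapped the inputs at 59.6 to 78.8. In NES its change of 0.31 ± 0.20 did not pass (adjusted p = 0.197). The lid deubiquitinase PSMD14 had 0.22 ± 0.16 in ERM and 0.41 ± 0.23 in NES, neither past the threshold (adjusted p = 0.241 and 0.139). With enriched and input libraries of the same replicate paired, PSMD14 passed in both (adjusted p = 0.049 and 0.009) and PSMD7 passed in NES (adjusted p = 0.0384). The assembly chaperone PSMD10 had -0.13 ± 0.14 in ERM and 0.25 ± 0.20 in NES, and PSMD9, another chaperone, -0.51 ± 0.22 and -0.30 ± 0.33. Neither chaperone passed (adjusted p from 0.0551 to 0.463). With replicates paired, PSMD10 was called higher in NES (adjusted p = 0.0492). PSMD9, PSMC1, PSMA5 and PSMD11 were then called lower in ERM, NES or both. In all, pairing gave 3 members higher and 24 lower in ERM, beside 5671 higher and 4749 lower of 15619 genes. For NES it gave 4 members higher and 23 lower, beside 4819 higher and 4519 lower of 15619 genes.

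**Figure D2:**
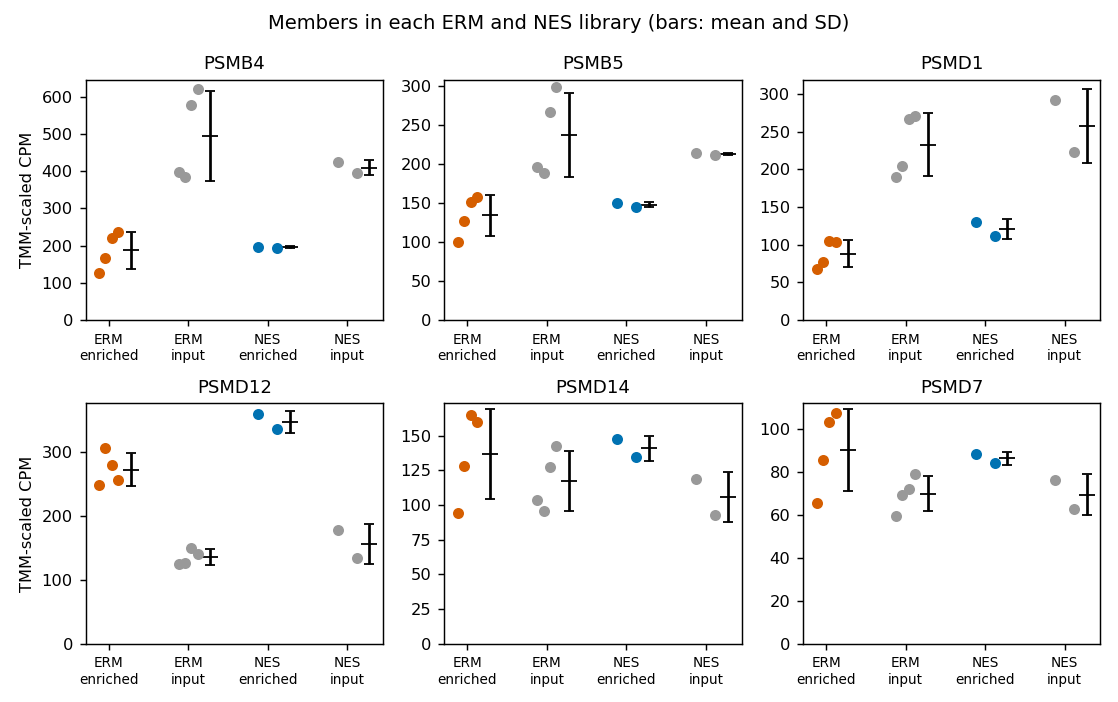
TMM-scaled CPM of 6 members in each ERM and NES library, enriched libraries in colour left of inputs in grey, with the mean and SD beside the points; each axis starts at 0. PSMB4, PSMB5 and PSMD1 lie lower in every enriched library than in any input of the construct, PSMD12 lies higher, and PSMD14 and PSMD7 overlap with their inputs in ERM.

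Enrichment did not differ detectably between the membrane and the cytosol. In the test of the difference itself, ERM minus NES, edgeR called 0 of 32 members, beside 0.0064% of all genes higher and 0% lower. An unadjusted p under 0.05 was found for 0 members, beside 2167 of 15619 genes. DESeq2 also called 0 members, beside 1.1% of all genes higher and 2.92% lower, and 0 were called with replicates paired, beside 2.52% higher and 3.58% lower. The difference was -0.14 for PSMD12 (95% interval -0.56 to 0.27), -0.33 for PSMB4 (-0.99 to 0.33) and -0.29 for PSMB5 (-0.86 to 0.27). These intervals do not show that the constructs act alike. In the authors' deposited table of ERM over NES, whose libraries are not stated in its header, the median log2 fold change of the members was -0.05. In it 2 members had an unadjusted p under 0.05, PSMD1 at -0.41 and PSMD12 at -0.31. The share of all genes under 0.05 in that table was not counted.

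Because the members are known to be driven together by NFE2L1, the 250 bases upstream of their starts were read for the antioxidant-response core TGANNNNGC, on both strands, in the RefSeq promoter table of GRCh38.p14. The table held 33 such windows for 27 of the 32 members, and 16 windows (48.5%), in 14 members, held the core, against 35.2% of 35116 windows of all genes. The fully specified form TGACTCAGC was in 0 of the 33 windows and in 0.456% of all windows. For so rare an element, 33 windows are too few for the 0 to tell the members from other genes. A short stretch is shown for the member that rose most in ERM and for a pair that fell, with the core in capitals. They are read along the gene's strand from chr17:67366708-67366768 (minus), chr1:151399388-151399448 (plus) and chr14:23035319-23035379 (minus). The core marked in PSMB4 and in PSMB5 is on the opposite strand. Both genes have further matches upstream that are not marked, among them a match in PSMB5 on the gene's own strand.

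PSMD12: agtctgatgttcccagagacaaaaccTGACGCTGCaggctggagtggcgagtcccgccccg

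PSMB4: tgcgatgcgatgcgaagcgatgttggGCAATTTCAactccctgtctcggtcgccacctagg

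PSMB5: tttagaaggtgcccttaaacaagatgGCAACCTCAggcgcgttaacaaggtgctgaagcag

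The core thus occurs upstream of a member that rose and of members that fell, which is a description of letters and not of binding.

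**Figure D3:**
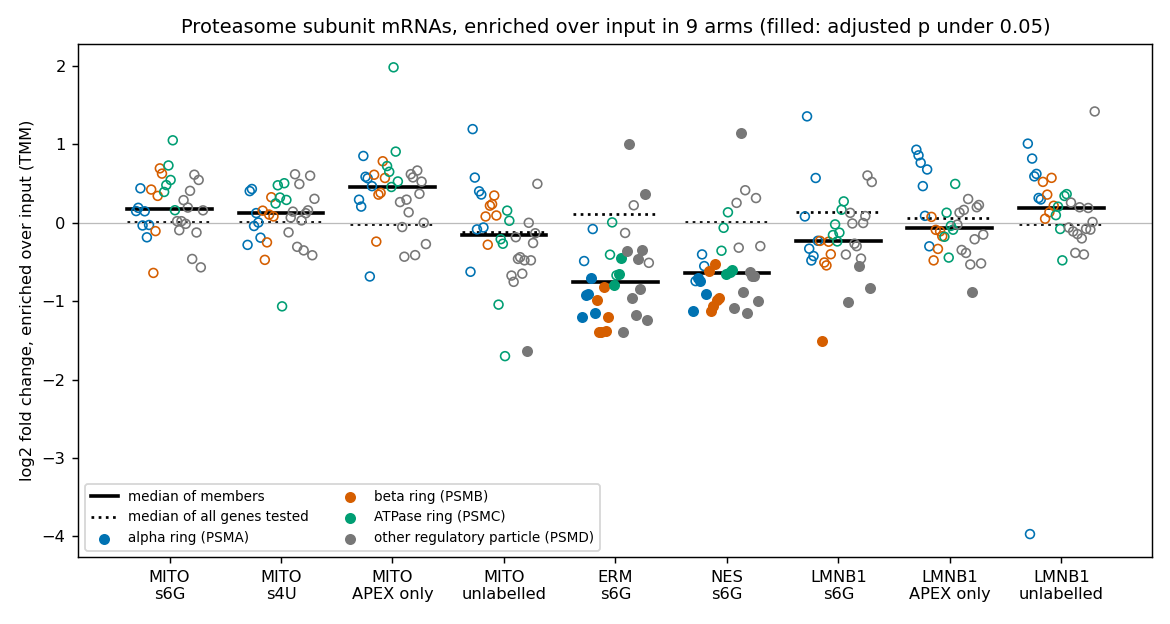
Log2 fold change of each of the 32 members, enriched over input, in 9 arms; colours give the ring or PSMD group, filled points passed an adjusted p of 0.05, solid lines are medians of the members and dotted lines medians of all genes tested. ERM and NES hold most filled points, at member medians of -0.75 and -0.64.

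In the mitochondrial matrix arms no member passed in any labelled arm. For MITO s6G, edgeR called 0 members, against 0.29% of all genes higher and 0.0264% lower. An unadjusted p under 0.05 was found for 3 members, beside 1342 of 15151 genes. DESeq2 called 1 member higher, beside 2.79% of all genes higher and 1.85% lower. The median log2 fold change was 0.17, against 0.01 over all genes. The ATPase PSMC5 was the highest member, with 230 and 270 scaled CPM in MITO s6G enriched libraries against 126 and 115 in inputs, a change of 1.05 ± 0.32 (adjusted p = 0.263). PSMC3, another ATPase, stood at 0.73 ± 0.40, PSMB6 at 0.69 ± 0.29, PSMB7 at 0.63 ± 0.33, PSMD4 at 0.61 ± 0.28 and PSMB2 at -0.64 ± 0.33. With replicates paired, PSMB6, PSMC3 and PSMC5 were called higher (adjusted p = 0.0479, 0.043 and 0.00165), beside 3.47% of all genes higher and 3.35% lower. Scaled by total counts, 0 members were called higher and 6 lower, beside 38 higher and 2777 lower of 15151 genes. The median of all genes was then -0.87.

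In MITO APEX only 0 members passed, against 0.251% of all genes higher and 0.0198% lower. Of the members, 5 had an unadjusted p under 0.05, beside 1342 of 15151 genes, and DESeq2 called 0. The median was 0.46, against -0.01 over all genes; scaled by total counts it was -0.25, against -0.74 over all genes. With replicates paired, 5 were called higher (PSMA3, PSMB6, PSMC1, PSMC4 and PSMC5), beside 4.33% of all genes higher and 2.82% lower. In MITO s4U 0 members passed, against 0.112% of all genes called higher and 0% lower. The median was 0.12 and DESeq2 called 0. By unadjusted p under 0.05 there were 0 members, beside 1050 of 15151 genes.

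In the MITO unlabelled arm 1 of 32 members fell and 0 rose, beside 4.09% of all genes lower and 5.78% higher. PSMD3, a lid subunit, had 54.7 and 75.2 scaled CPM in enriched libraries against 239 and 185 in inputs, a change of -1.64 ± 0.34 (adjusted p = 0.0136). Without either input library the call was lost. With replicates paired PSMC1 fell too, beside 9.89% of all genes higher and 10.6% lower. This arm holds the shallowest enriched libraries.

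The differences between MITO arms called 0 members in edgeR and in DESeq2. For s6G minus APEX only and s6G minus s4U, 0 members had an unadjusted p under 0.05, beside 371 and 88 of 15151 genes. By adjusted p, 0% of all genes were called in either. For s4U minus APEX only 1 member had an unadjusted p under 0.05, beside 415 of 15151 genes. With replicates paired 1 member, PSMC4 on few counts, was called lower, beside 0.106% of all genes higher and 0.0066% lower. Against the unlabelled arm, 4 members in s6G, 2 in s4U and 5 in APEX only had an unadjusted p under 0.05. So did 2815, 2910 and 2492 of the 15151 genes tested. By adjusted p, 0.277% of all genes were called higher and 0.099% lower in s6G. These shares were 0.191% and 0.0726% in s4U, and 0.033% and 0.0066% in APEX only. With replicates paired, PSMC1 was called higher in s6G minus unlabelled (6.92% of all genes higher, 3.47% lower) and PSMD3 in s4U minus unlabelled (6.9% higher, 3.71% lower). In APEX only minus unlabelled PSMC1, PSMC4, PSMD3 and PSMD14 were called higher with replicates paired (4.87% of all genes higher, 2.09% lower).

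For some members the s6G change from input was higher in the matrix than in the cytosol. Over input, 0 members were called in MITO s6G, where the member median was 0.17. In NES 20 were called lower and 1 higher, beside 26.4% and 28.7% of all genes, and the member median was -0.64. In the difference MITO s6G minus NES s6G, 10 of 32 members were called higher and 0 lower, where 8.19% of all genes were called higher and 10.3% lower. The median difference was 0.71 log2 for the members and -0.07 for all genes. The largest were PSMC5 at 1.64 ± 0.36 (adjusted p = 0.00397), PSMB6 at 1.64 ± 0.39 (0.00662), PSMB7 at 1.54 ± 0.35 (0.00427) and PSMD2 at 1.51 ± 0.31 (0.00225), and PSMA1, PSMA3, PSMB1, PSMC3, PSMD1 and PSMD4 made up the rest. The 3 lowest were PSMD12 at -0.90 ± 0.34 (adjusted p = 0.0692), PSMD10 at -0.39 ± 0.33 and PSMD14 at -0.26 ± 0.41. PSMB5 stood at 0.82 ± 0.35 and PSMD9 at 0.42 ± 0.53, neither past the threshold. These differences compare changes in 2 constructs whose cultures and preparations were separate, so construct and preparation cannot be told apart. Fewer were called without some libraries: 4 without NES input replicate 1, 5 without MITO s6G input replicate 1 or NES enriched replicate 2, and 6 without MITO s6G enriched replicate 2. With replicates paired, 21 members were called higher and 1 lower (PSMD12), beside 15.5% and 19.3% of all genes. Scaled by total counts, 0 members were called higher and 3 lower, beside 155 higher and 5514 lower of 16139 genes. The member median was then -0.17 against -0.97 over all genes.

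**Figure D4:**
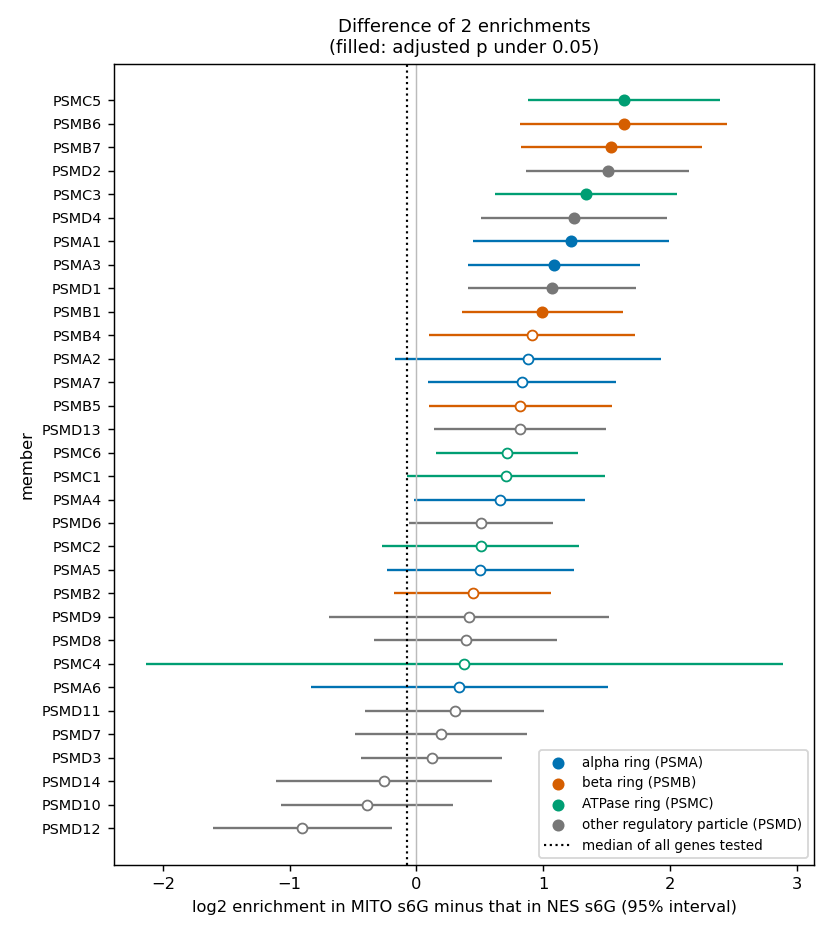
Difference of the log2 enrichments, MITO s6G minus NES s6G, for the 32 members with 95% intervals; filled points passed an adjusted p of 0.05 and the dotted line is the median of all genes tested, -0.07. The 10 called members lie at or above 0.99, and PSMD12 is lowest at -0.90.

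At the nuclear lamina few members were called. In LMNB1 s6G, 4 of 32 members fell and 0 rose, where 7.64% of all genes fell and 5.37% rose, and the median was -0.23 against 0.13 over all genes. PSMB2 had 118 and 90.2 scaled CPM in enriched libraries against 318 and 275 in inputs, a change of -1.51 ± 0.23 (adjusted p = 0.00153). PSMD10 had 106 and 72.9 in enriched libraries against 195 and 164 in inputs, a change of -1.01 ± 0.24 (adjusted p = 0.0161). PSMD8, a lid subunit, changed by -0.83 ± 0.22 (adjusted p = 0.0274) and PSMD2 by -0.55 ± 0.17 (adjusted p = 0.0457). For each of these 4, both enriched libraries lay below both inputs. The calls went to 1 without LMNB1 s6G input replicate 1 or enriched replicate 2, and to 2 without input replicate 2. The highest members, PSMA2 at 1.36 ± 0.73, PSMD7 at 0.60 ± 0.22 and PSMA6 at 0.57 ± 0.43, did not pass. The header of the authors' deposited table for LMNB1 does not state which libraries were compared. For s6G, the members with an adjusted p under 0.05 in it were the same 4. Their log2 fold changes there were -1.67 for PSMB2, -1.16 for PSMD10, -0.98 for PSMD8 and -0.71 for PSMD2. Both sets of values come from the same series, so the deposited ones are not an independent check. For the LMNB1 arm labelled RNA, which is APEX only here, the authors' deposited table had 5 members with an adjusted p under 0.05. These were PSMA3 at 0.73, PSMB2 at -0.52, PSMD2 at -0.57, PSMD3 at -0.92 and PSMD8 at -0.56. The share of all genes under that threshold in the deposited table was not counted.

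In LMNB1 APEX only 1 member fell and 0 rose, beside 1.02% of all genes lower and 0.411% higher. PSMD3 had 188 and 180 scaled CPM in enriched libraries against 348 and 330 in inputs (-0.88 ± 0.17, adjusted p = 0.0302), and leaving out any 1 of the 4 libraries ended the call. DESeq2 called 2 higher and 2 lower, beside 3.22% and 6.1% of all genes. In LMNB1 unlabelled edgeR called 0 members, beside 0.0242% of all genes higher and 0.0121% lower. An unadjusted p under 0.05 was found for 7 members, beside 2866 of 16525 genes. DESeq2 called 1 member higher and 1 lower, beside 1.41% and 1.43% of all genes. The median was 0.19, against -0.01 over all genes.

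Between LMNB1 s6G and LMNB1 unlabelled, 1 of 32 members differed, a share near that of all genes. For PSMB2, the enrichment in s6G minus that in unlabelled was -1.56 ± 0.32 (adjusted p = 0.0297), beside 1.51% of all genes higher and 1.19% lower. In unlabelled cells PSMB2 had 188 and 276 scaled CPM in enriched libraries against 255 and 196 in inputs, which overlap. The call was lost without any of 6 libraries (both s6G inputs, s6G enriched replicate 2, both unlabelled inputs and unlabelled enriched replicate 2). Without unlabelled enriched replicate 1 more members were called, and the share of all genes called there is not given. With replicates paired 1 was called higher and 2 lower, beside 3.13% and 2.59% of all genes, and DESeq2 called 1 higher and 3 lower, beside 5.29% and 5.07%. In s6G minus APEX only edgeR called 0 (0% of all genes), and 4 had an unadjusted p under 0.05, beside 2020 of 16525 genes. There DESeq2 called 2 lower, beside 4.08% of all genes higher and 3.85% lower. In APEX only minus unlabelled edgeR and DESeq2 called 0, and 1 had an unadjusted p under 0.05, beside 1748 of 16525 genes.

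Against the cytosol, LMNB1 s6G minus NES s6G called 3 members higher and 2 lower, beside 15.4% and 19.2% of all genes, so the members were called no more often than genes at large. PSMA2 at 1.99 ± 0.48, PSMA1 at 1.09 ± 0.35 and PSMC6 at 0.75 ± 0.26 were higher, the first 2 on few counts. PSMD10 at -1.37 ± 0.32 and PSMD12 at -1.27 ± 0.34 were lower. Construct and preparation cannot be told apart here either. Leaving out either NES enriched library, NES input replicate 1 or either LMNB1 s6G input left 1 member higher and 2 lower, and leaving out LMNB1 s6G enriched replicate 1 left 1 higher and 3 lower. With replicates paired 13 were called higher and 4 lower, beside 22% and 26.5% of all genes. Without a filter on low counts 1 was called higher and 3 lower, beside 1941 higher and 3126 lower of 36622 genes.

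**Figure D5:**
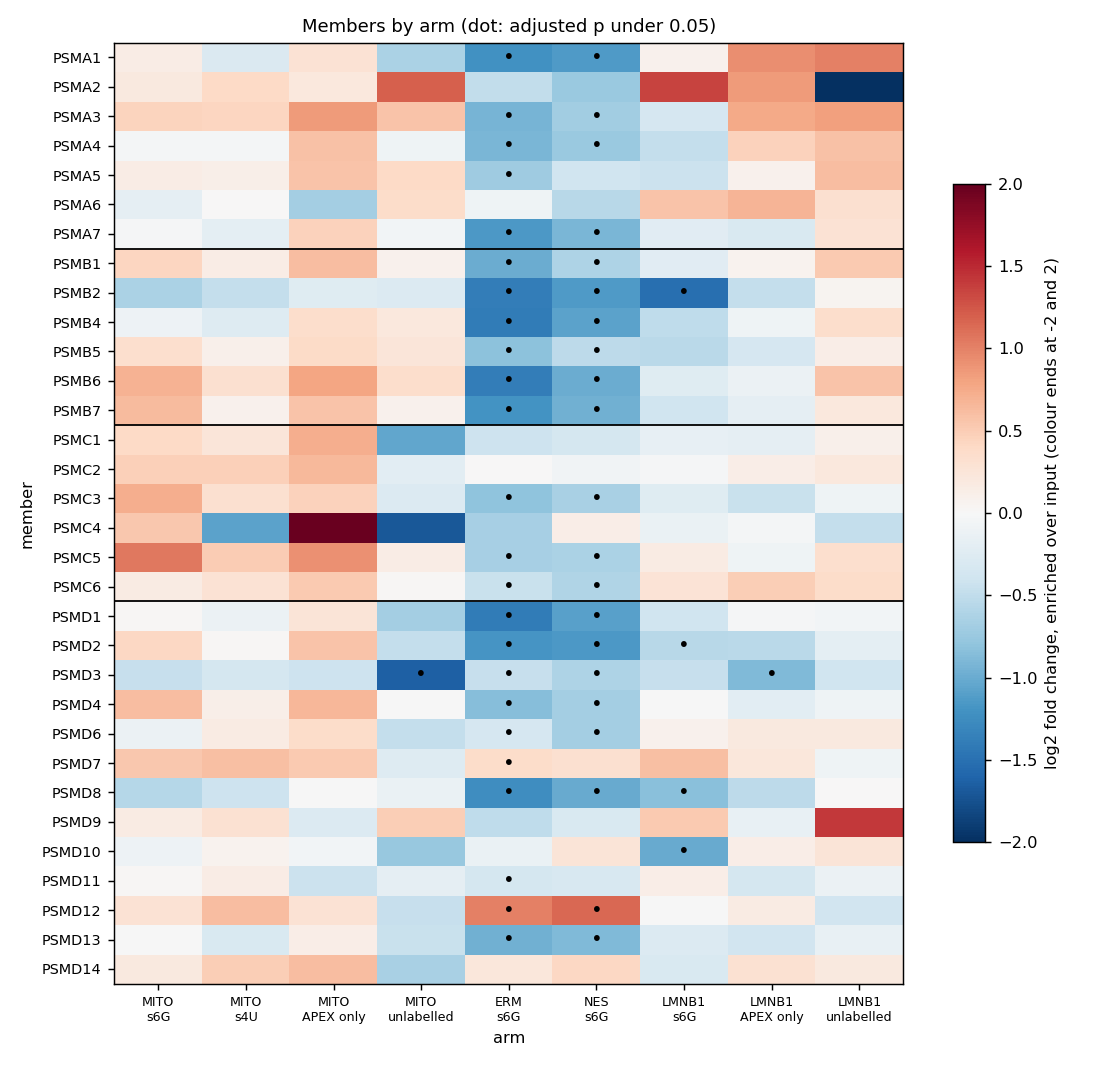
Log2 fold change, enriched over input, of 32 members (rows, ordered by ring) in 9 arms (columns); red is higher and blue lower after capture, colours end at -2 and 2, and a dot marks an adjusted p under 0.05. PSMD12 is red in ERM and NES where most rows are blue, and PSMD3 is blue in all 9 columns.

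The members did not all move as 1 block across arms. By sign alone, values near 0 included, PSMC6, PSMD7 and PSMD14 lay above input in 7 of the 9 arms. PSMD12 did so in 6, and PSMB2, PSMD8 and PSMD13 in 1. In the main fits and in DESeq2, no change of their levels with feeding was called before capture. In MITO inputs, s6G over APEX only called 0 of 32 members (0.0528% of all genes higher, 0% lower). In LMNB1 inputs it called 0 (0.109% higher, 0.0182% lower). In MITO inputs, s4U over APEX only called 0 (0% of all genes either way). In this order 1, 2 and 2 members had an unadjusted p under 0.05. Beside them stood 1287 of 15151, 1901 of 16525 and 583 of 15151 genes. DESeq2 called 0 in each. With LMNB1 inputs blocked by replicate number, which is all that inputs of different arms share, 9 members were called higher and 2 lower. Of 13517 genes in that fit, 2173 were called higher and 2182 lower. In bulk libraries, fewer molecules per cell and fewer cells holding an mRNA cannot be told apart.

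Among genes that work with the proteasome both directions occurred. They are read beside 28.9% of all genes lower and 34.3% higher in ERM, and 26.4% lower and 28.7% higher in NES. Of 20 partners, 10 fell and 5 rose in ERM, and 9 fell and 5 rose in NES, with medians of -0.49 and -0.41. The activators PSME1 and PSME2 fell, at -1.89 and -1.70 in ERM and -1.33 and -1.58 in NES, as did the scaffold protein ECPAS, at -1.74 and -1.63. ZFAND5, which binds and activates the proteasome, rose at 1.22 in ERM and 2.00 in NES, and AKIRIN2, which carries proteasomes into the nucleus, at 1.10 and 1.87. Of 20 tested ubiquitin and delivery genes, 12 fell and 8 rose in ERM, and 10 fell and 7 rose in NES. NFE2L1, the transcription factor named above, rose at 1.56 in ERM and 1.45 in NES, and DDI2, the protease that cuts it, at 1.58 and 1.62.

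Other cytosolic complexes were counted beside the same shares of all genes. Of the 8 CCT chaperonin genes, 8 fell in ERM and 7 in NES, with medians of -0.97 and -0.85. Of 12 tested eIF3 genes, 10 fell in each, with medians of -1.01 and -1.03. Of the 9 COP9 signalosome genes, which resemble the lid, 6 fell and 1 rose in each, with medians of -0.58 and -0.51. In MITO s6G minus NES s6G, beside 8.19% of all genes higher and 10.3% lower, 4 CCT genes, 2 eIF3 genes and 2 COP9 genes were called higher and 0 lower. In the same difference 7 partners were higher and 2 lower, and 5 ubiquitin and delivery genes were higher and 4 lower. The summed markers of other cell types were 8.79 to 11.6 CPM in ERM enriched libraries against 28.8 to 39.5 in ERM inputs, and 8.14 to 11.6 CPM in NES enriched libraries against 33.4 to 38.2 in NES inputs, and their part in these results was not tested.

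The genes whose 9 enrichment values ran most like the median of the members were MAGOH (Pearson's r 0.996), DPP3 (0.988), MAP4K4 (0.985), HSD17B4 (0.983) and PARK7 (0.981), each over 9 arms that share libraries within a construct. Of 13912 genes outside the members, 345 had an r over 0.9. MAGOH, an exon junction protein, stood at -0.66 in ERM, -0.41 in NES, 0.93 in MITO s6G and 0.25 in LMNB1 s6G. Among the members themselves PSMB1 was nearest the median at 0.975 and PSMD12 farthest at -0.550. PSMA2, PSMA6, PSMC4, PSMD3, PSMD7, PSMD9, PSMD10, PSMD11 and PSMD14 lay between -0.079 and 0.410. All other members had an r of 0.688 or more with this median, of which they are a part.

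Levels per length were not compared between members. The authors' deposited MITO TPM values, which add both replicates of a group, would put PSMB4 first, at 1954 in the s6G inputs, against 76.0 for PSMB2, whose median input count was 1242 against 1812.5 for PSMB4. For 27 of the 32 members the gene length implied by counts and TPM matched the whole span of the gene, introns included, within 2%. Among the other 5 the ratio ran from 1.03 to 1.99, the highest being PSMB5. Those values therefore order the members partly by how far their genes stretch along the chromosome: PSMB4 spans 2365 bases and PSMB2 41986.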

How the data were processed

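Polyadenylated RNA from HEK293T cells was sequenced by the authors. Builds GRCh38 and hg38 are listed, per the submitters' processing notes, with the tools DESeq2, deepTools 2.5.3, HTSeq 0.7.2, HISAT2 2.1.0 and SAMtools, whose roles are not given there. How strand and multi-mapped reads were treated is not given either. The authors deposited raw read counts per gene for 40 libraries, log2 values of summed MITO TPM, per the file headers, and log2 fold changes with p-values for ERM over NES and for LMNB1. The mean normalised signal column of the deposited ERM table was not used.

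The quasi-likelihood test of edgeR 4.0.16 (R 4.3.3; robust, TMM scaling, filterByExpr) was run in separate fits of 16 MITO, 12 ERM and NES, 12 LMNB1 and 20 s6G libraries, with 15151, 15619, 16525 and 16139 genes. All 32 members passed the filter in each. P-values were adjusted over all genes of a fit and called at 0.05; errors after ± on log2 values are SE. Scaled CPM values compare libraries within a fit. Library totals ranged from 123341 to 14496768 counts as deposited, so low-count members are least precise. The even counts of ERM enriched replicates 3 and 4 were used as deposited.

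The series design gives enriched and input libraries as the same biological replicates, so they were paired in an alternative fit. Within arms, paired deviations correlated at 0.0583 to 0.670. Paired values are printed where they change a call or move a count by over 1.5 times. Other alternatives were RLE and total-count scaling, no filter, no mitochondrial genes, DESeq2 1.42.0 and leaving out each library.

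Members and gene lists were chosen with earlier results of these data known. Named in each main comparison were the catalytic and induced catalytic subunits, PSMD2, PSMD4, PSMD14, the chaperones PSMD5, PSMD9 and PSMD10, and the 3 highest and 3 lowest members; others were chosen after their values were seen. The characteristics of 4 ERM enriched and 4 LMNB1 s6G libraries name s4U, whereas their titles and the series design give s6G; the title decided the group. Gene spans come from RefSeq, GRCh38.p14; of the members, 14 overlap another gene and 5 a protein-coding one (PSMC1, PSMC2, PSMC5, PSMD1 and PSMD10), whose reads may not be told apart.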

Additional observations from a re-analysis of the deposited data

Results flagged for a closer look

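Enrichment differed between groups, by the test of the difference itself, in 3 comparisons. In MITO s6G minus NES s6G, 10 of 32 members differed, all higher, beside 8.19% of all genes higher and 10.3% lower, with PSMC5 at 1.64 and PSMD2 at 1.51 (log2). Over input, the member medians were 0.17 in MITO s6G, where 0 members were called, and -0.64 in NES. In LMNB1 s6G minus NES s6G, 5 members differed, 3 higher and 2 lower, beside 15.4% and 19.2% of all genes, which is no more than genes at large. PSMA2 stood at 1.99 on few counts and PSMD10 at -1.37. In LMNB1 s6G minus LMNB1 unlabelled, 1 member differed, PSMB2 at -1.56, beside 1.51% of all genes higher and 1.19% lower, and the call was lost without any of 6 libraries. The 32 members were each tested for a library far from the others in the ERM enriched and the ERM input group of 4, 64 tests in all, and 0 passed the limit. PSMC4, on few counts, came near it in ERM inputs, with 4.62, 2.75, 25.8 and 6.79 scaled CPM.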

How the results depend on the processing

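Counts of members called are given as totals in both directions. Under RLE scaling and without mitochondrial genes, each of the 24 counts stayed within 1.5 times the reported one. Total-count scaling gave 6 in MITO s6G, all lower, beside 38 higher and 2777 lower of 15151 genes. It gave 1 in MITO APEX only (30 higher and 1101 lower of 15151 genes) and 0 in LMNB1 APEX only (114 and 59 of 16525). It gave 1 in MITO s6G minus unlabelled (37 and 1210 of 15151) and 2 in LMNB1 s6G minus unlabelled (588 and 148 of 16525). In MITO s6G minus NES s6G it gave 3, all lower, beside 155 higher and 5514 lower of 16139 genes. It moved the median of all genes to 0.43 in ERM and -0.87 in MITO s6G, with member medians of -0.43 and -0.71. Member medians also moved under it to -0.33 in MITO s4U, -0.25 in MITO APEX only, -0.58 in NES and 0.08 in LMNB1 APEX only. The median of MITO unlabelled was 0.14 under it and 0.08 under RLE scaling, against -0.16. With no filter on low counts, LMNB1 APEX only gave 0 (178 higher and 208 lower of 39538 genes) and LMNB1 unlabelled 1 (187 and 188). LMNB1 s6G minus unlabelled gave 2 (599 and 340) and LMNB1 APEX only minus unlabelled 1 (82 and 5), of the same 39538 genes. MITO APEX only minus unlabelled gave 1 (141 and 61 of 37436). LMNB1 s6G minus NES s6G gave 4, mostly lower (1941 and 3126 of 36622). The replicate block, which pairs enriched and input libraries, gave 3 in MITO s6G, 5 in MITO APEX only, 2 in MITO unlabelled, 1 in s4U minus APEX only, 1 in s6G minus unlabelled, 1 in s4U minus unlabelled and 4 in APEX only minus unlabelled. It gave 3 in LMNB1 s6G minus unlabelled, 17 in LMNB1 s6G minus NES s6G and 22 in MITO s6G minus NES s6G; the other comparisons of enrichment kept their count within 1.5 times. For LMNB1 inputs of different arms, which share only a number, the block gave 11. Of these 9 were higher and 2 lower, beside 2173 higher and 2182 lower of 13517 genes. DESeq2 gave 1 in MITO s6G, 4 in LMNB1 APEX only, 2 in LMNB1 unlabelled, 2 in LMNB1 s6G minus APEX only and 4 in LMNB1 s6G minus unlabelled. Leaving out 1 library gave 0 to 1 in MITO unlabelled, 23 to 25 in ERM, 12 to 19 in NES, 1 to 3 in LMNB1 s6G, 0 in LMNB1 APEX only, 0 to 2 in LMNB1 unlabelled, 0 to 6 in LMNB1 s6G minus unlabelled, 3 to 6 in LMNB1 s6G minus NES s6G and 4 to 10 in MITO s6G minus NES s6G. Where an arm was left with 1 library, that library was assumed to vary like the other groups. Shares of all genes called are not given for the refits without 1 library, here or above. Counts from those refits therefore do not set the members apart from genes at large. The cause of the changes between settings was not tested. Groups of 2 libraries and the low counts of PSMA1, PSMA2, PSMA6, PSMC4 and PSMD9 limit what could be detected.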
